A study of Rattus norvegicus with 10 samples.

Results

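The lactose synthesis genes examined here are Lalba, B4galt1, Ugp2, Pgm1, Pgm2, Hk1 and Hk2, which cover the route from glucose to lactose. They were chosen by gene name: every non-control array probe annotated to 1 of these 7 genes was taken, which gave 11 of the 41012 probes, and 7 of the 35469 gene names, on the array. Of these, 9 probes for 6 genes were detected in whey and entered the tests, beside 16849 tested probes in all. The messenger RNA was measured in cell-free milk whey of 3 F344/N rat dams, with milk taken 2, 9 and 16 days postpartum (d 2, d 9 and d 16, n = 3 arrays a day), and in serum taken from the same dams on d 21. Serum RNA of the 3 dams was pooled on 1 array. Dams were separated from their pups and given oxytocin into the peritoneal cavity before each milking, on every day alike. Fat, cells and casein were spun out of the milk, so the RNA is that left in the clear whey and not that of a tissue. Each array received 100 ng of total RNA. The levels were then normalized between arrays, so a level is relative to the other transcripts of the sample. More of 1 transcript cannot be told apart from less of the others, nor fewer cells of a type behind it from less RNA per cell. Amounts per volume of milk cannot be read from these arrays.

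Lactose is the main sugar of milk and is made in the Golgi of the milk-secreting epithelial cell. Hexokinases phosphorylate glucose, phosphoglucomutases turn glucose 6-phosphate into glucose 1-phosphate, and UDP-glucose pyrophosphorylase makes UDP-glucose, which is converted to UDP-galactose. In the last step the galactosyltransferase encoded by B4galt1 joins galactose to glucose. That enzyme is found in many tissues, where it decorates glycoproteins, and it uses glucose as the acceptor when it is bound by alpha-lactalbumin, the milk protein encoded by Lalba.

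The probes are single DNA strands of 60 bases, and the letters of those that carry the results on Lalba, Ugp2, Pgm1 and Pgm2 are given here in lower case from 5′ to 3′, since each level below is the brightness of 1 such strand. The Lalba probe maps to chr7:137222049-137222536 and the Ugp2 probe to chr14:102079959-102080670 of the rn4 build named in the file headers. Both spans are longer than the probe, 488 and 712 bases, so each strand matches a spliced transcript across a junction. The Pgm1 probe lies at chr5:120630320-120630379 and the Pgm2 probe at chr14:46827363-46827422.
Lalba A_43_P11478: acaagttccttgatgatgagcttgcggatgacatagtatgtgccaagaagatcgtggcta
Ugp2 A_44_P136342: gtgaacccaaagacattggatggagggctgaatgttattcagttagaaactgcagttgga
Pgm1 A_44_P356078: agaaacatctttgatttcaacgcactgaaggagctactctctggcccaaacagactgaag
Pgm2 A_42_P455982: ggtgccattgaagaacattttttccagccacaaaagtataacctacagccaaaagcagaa

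The last step of the route is carried by Lalba and B4galt1, and the bases just before their transcription starts are shown for that reason. The 250 bases upstream of each start come from RefSeq in the GRCr8 build, at chr7:131507073-131507322 for Lalba and chr5:60778446-60778695 for B4galt1, both on the minus strand and written in the direction of the gene. Capitals mark matches, on either strand, to a STAT5 site (TTCNNNGAA) or a GC box (GGGCGG).
Lalba: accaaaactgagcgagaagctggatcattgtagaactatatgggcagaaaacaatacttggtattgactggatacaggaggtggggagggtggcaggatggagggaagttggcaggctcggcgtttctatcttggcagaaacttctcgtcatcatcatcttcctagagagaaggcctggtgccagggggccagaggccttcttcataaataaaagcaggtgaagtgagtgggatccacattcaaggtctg
B4galt1: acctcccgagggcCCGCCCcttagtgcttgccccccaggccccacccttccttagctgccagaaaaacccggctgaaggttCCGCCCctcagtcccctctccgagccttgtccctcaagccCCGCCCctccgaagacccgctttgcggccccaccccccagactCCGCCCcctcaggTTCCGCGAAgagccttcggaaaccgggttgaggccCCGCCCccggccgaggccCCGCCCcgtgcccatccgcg
The B4galt1 window held 6 GC boxes, 1 STAT5 site and 21 CpG pairs at 72.0% G and C. The Lalba window held neither motif and 4 CpG pairs at 49.6% G and C, against a median of 51.2% over the 33469 promoter windows of the table. Over those windows, 30.5% held a GC box and 7.67% a STAT5 site. Neither TATAAA nor CCAAT, found on either strand in 12.9% and 34% of windows, was in the Lalba or the B4galt1 window. A match describes letters only, and binding was not measured.

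Within whey, B4galt1 rose and Pgm2 and Hk1 fell between d 2 and d 9, and Lalba was about 2.1-fold higher on d 16 than on d 2. From d 2 to d 9, 4 of the 9 tested member probes changed at an adjusted p under 0.05 (limma), 2 of them higher and 2 lower. Over all tested probes the shares called in that comparison were 17.6% in either direction, 11.3% higher and 6.36% lower. With arrays scaled to spike-in probes instead, 4 member probes were called and all 4 were higher. That setting called 7072 of all 16849 tested probes in either direction. From d 2 to d 16, 7 of 9 changed, 4 higher and 3 lower, so that each of the 6 tested genes had at least 1 called probe. The shares over all tested probes were 28.5%, 16.0% higher and 12.4% lower. With spike-in scaling 2 member probes were called, both higher, and 764 of all 16849 tested probes in either direction. Between d 9 and d 16 none of the 9 changed at that threshold by limma. The adjusted Tukey-Kramer test called 0 of all 16849 tested probes there, so it says nothing about the members. By limma 1.42% of all tested probes changed, 0.564% higher and 0.855% lower. The counts behind these shares moved when 1 array was left out, from 2969 to between 1266 and 2718 on d 9, from 4801 to between 2744 and 4886 on d 16, and from 239 to between 22 and 259 between d 9 and d 16. At an unadjusted p under 0.05, Lalba and Hk1 were higher on d 16 than on d 9. The median log2 change of the 9 probes was 0.03, 0.20 and -0.01 in the 3 comparisons, and that of all tested probes was 0.11, 0.04 and -0.06. The comparisons with d 2 share the d 2 arrays.

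**Figure D1:**
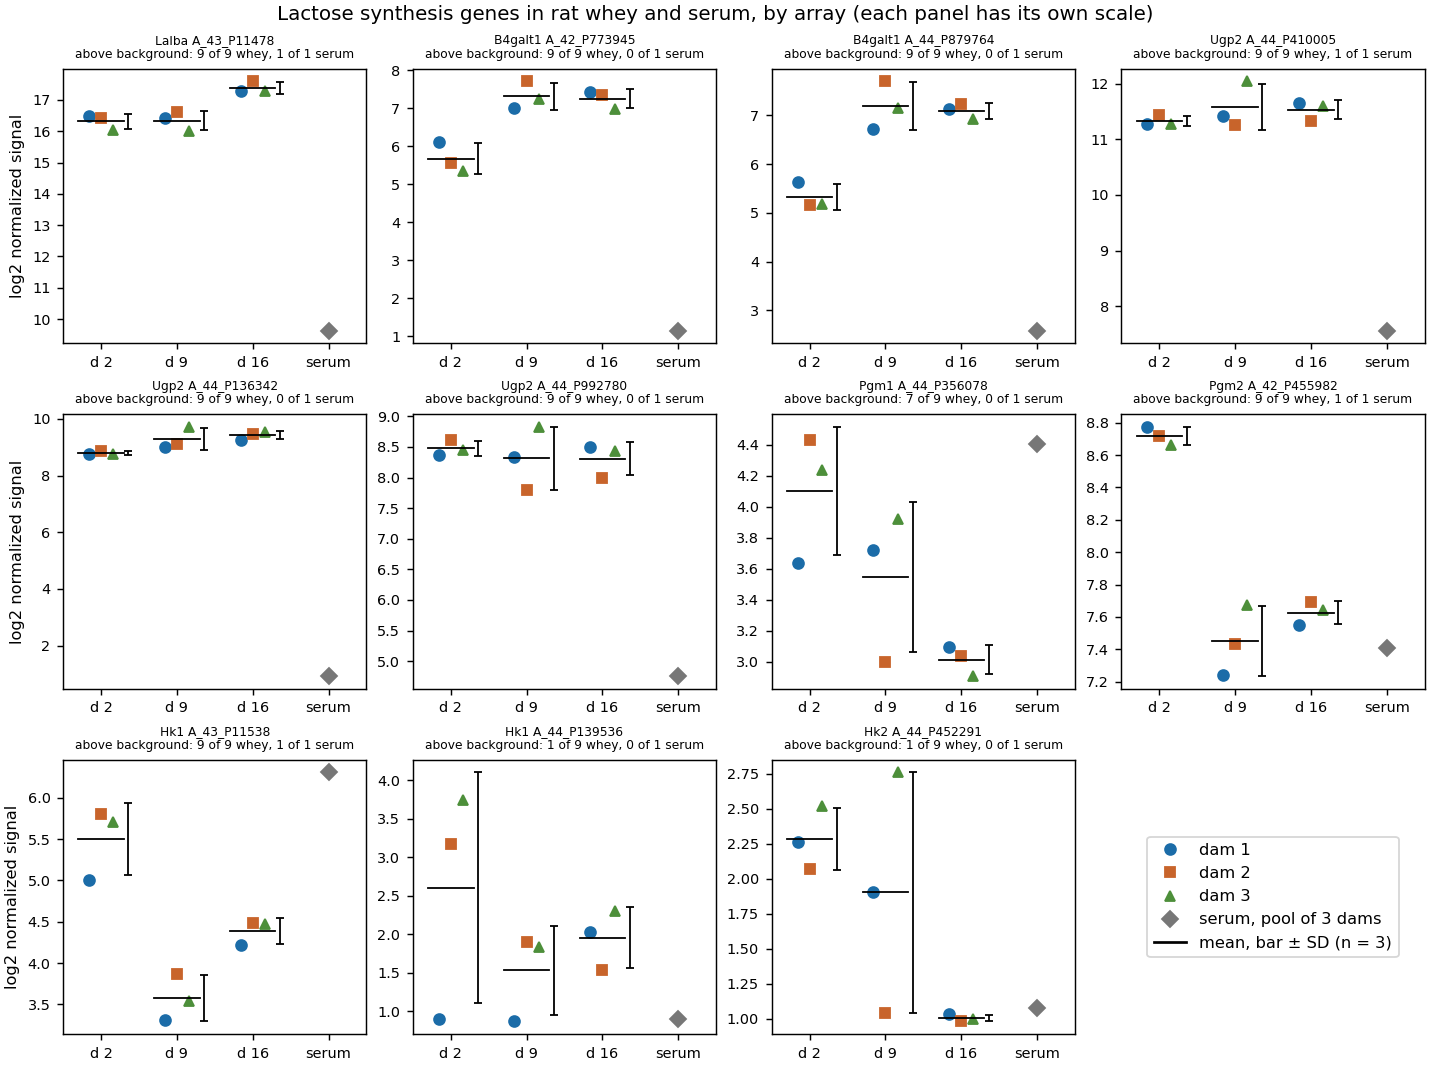
Log2 normalized signal (y axis, own scale in each panel) of the 11 probes of the lactose synthesis genes on each array, by sample (x axis), with dams as coloured symbols, lines and bars for the mean ± SD of 3 dams and a grey diamond for the pooled serum array. Both B4galt1 probes sit higher on d 9 and d 16 than on d 2, Lalba is highest on d 16, and Pgm2 and the detected Hk1 probe are highest on d 2 among the whey samples.

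Alpha-lactalbumin, the regulatory partner of the lactose synthase complex, had 1 probe, and it was well above background on all 9 whey arrays. Its log2 normalized signal was 16.47, 16.43 and 16.05 in dams 1, 2 and 3 on d 2. It was 16.43, 16.61 and 16.00 on d 9, and 17.28, 17.59 and 17.28 on d 16. The d 2 and d 9 values overlapped, and all 3 d 16 values lay above every earlier one. The change from d 2 to d 9 was 0.03 on the log2 scale (SE 0.20, 95% interval -0.44 to 0.49, adjusted p = 0.937). From d 2 to d 16 Lalba rose by 1.07 (SE 0.20, adjusted p = 0.00764), with a rise of 0.80 to 1.23 in each of 3 dams. The difference of d 16 from d 9 was of the same size, 1.04 (SE 0.20), but missed the threshold at an adjusted p of 0.0556. With the dam as a block it passed, at an adjusted p of 0.0486. On a spike-in scale Lalba was 1.29 higher on d 9 than on d 2 (adjusted p = 0.101) and 0.29 higher on d 16 than on d 9 (adjusted p = 0.739), and neither passed.

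Brightness is not comparable between probes of different genes, so the rank of the Lalba probe within an array only describes where its signal lay. Counted from the brightest probe, it stood between 15 and 28 on d 2 and d 9 and between 7 and 9 on d 16. It held 0.442% to 0.672% of the summed signal of an array on the first 2 days and 1.18% to 1.29% on d 16. In serum it ranked 1463 with 0.00216% of the signal. These ranks and shares use the signal of each array before normalization, and no probe was saturated.

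The 3 d 16 whey arrays were on a slide and scan day of their own among the whey arrays, so for every comparison with d 16 the day cannot be told apart from the slide and the scan. The d 9 arrays shared a slide with dam 3 of d 2. Within that slide the d 9 mean of Lalba differed from the d 2 array by 0.30.

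B4galt1, the catalytic galactosyltransferase, rose early. Its probe A_42_P773945 (chr5:58197320-58197379, minus strand of rn4) read 6.12, 5.56 and 5.34 on d 2, then 7.01, 7.70 and 7.23 on d 9 and 7.43, 7.34 and 6.98 on d 16. All 6 later values lay above all 3 d 2 values. The rise was 1.64 on d 9 (SE 0.26, 3.12-fold, adjusted p = 0.00745) and 1.58 on d 16 (SE 0.26, 2.99-fold, adjusted p = 0.00468).

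The other B4galt1 probe, A_44_P879764, lies just beside it at chr5:58197209-58197268. It read 5.63, 5.15 and 5.18 on d 2, then 6.73, 7.70 and 7.15 on d 9 and 7.12, 7.24 and 6.92 on d 16. Here too the d 2 values stood below all the others, with a rise of 1.87 on d 9 (adjusted p = 0.00487) and 1.77 on d 16 (adjusted p = 0.00276). Over the 9 whey arrays the probes correlated at r = 0.989, as 2 readings of the same samples. Between d 9 and d 16 their changes were -0.06 and -0.10 with 95% intervals of -0.66 to 0.54 and -0.69 to 0.49. Within the slide shared by d 9 and dam 3 of d 2 the differences were 1.98 and 2.02. With slide as a block in the fit these are the estimates, and their adjusted p-values were 0.0395 and 0.0453. The size of the rise varied with processing. With normexp background correction, whose offset shrinks changes of dim probes, it was 0.83 and 0.98 on d 9 and 0.81 and 0.83 on d 16.

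**Figure D2:**
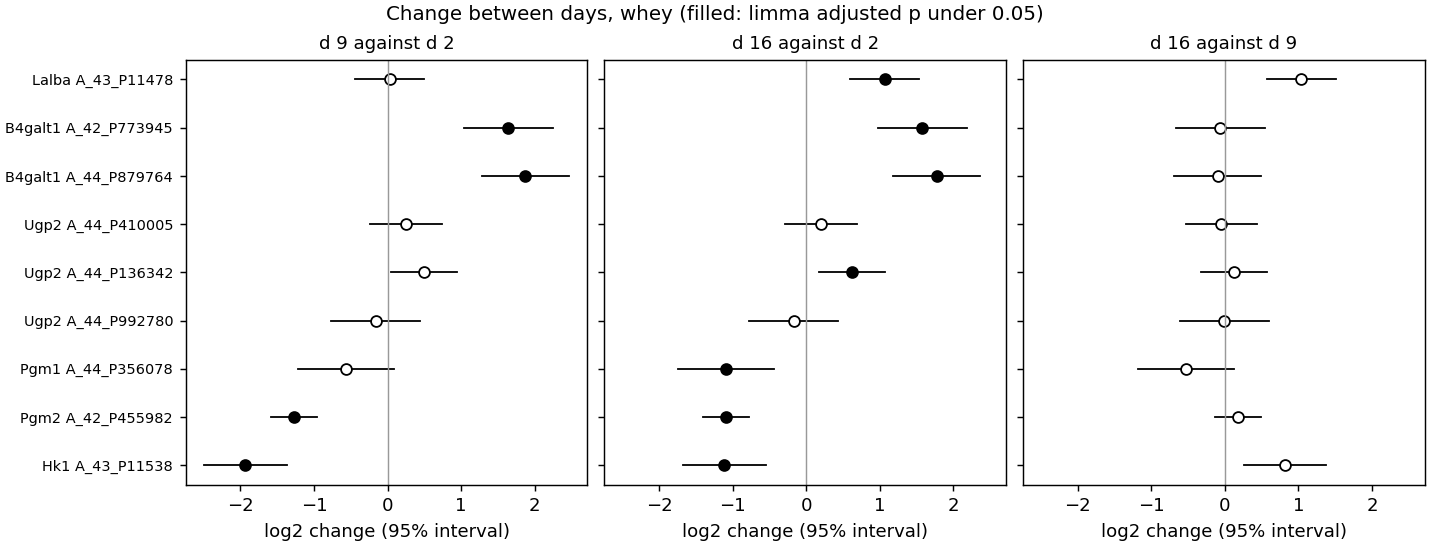
Log2 change (x axis) of the 9 tested probes (y axis) between days in whey, with 95% intervals, filled where the limma adjusted p was under 0.05. Both B4galt1 probes are filled to the right of 0 and Pgm2 and Hk1 to the left in both comparisons with d 2, Lalba is filled on d 16 against d 2, and no probe is filled in d 16 against d 9; on a spike-in scale Pgm2 lies right of 0 on d 9.

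As a measure of unequal change between the partners of lactose synthase, B4galt1 was also set against Lalba within each array. A scale factor common to both probes cancels, but effects of array brightness that differ between a dim and a bright probe do not. The value of such a ratio depends on both probes, and only its change is read here. With probe A_42_P773945, the log2 ratio of processed signals was -10.63, -10.75 and -10.59 in dams 1 to 3 on d 2. It was -9.42, -8.60 and -8.25 on d 9, and -10.02, -9.83 and -10.21 on d 16. Within d 9 the ratio was higher on brighter arrays, with 75th percentiles of processed signal of 21.2, 41.8 and 83.2 in dams 1 to 3. The part of brightness in the ratio was not tested. All 3 dams had their highest ratio on d 9, and no day overlapped another. The mean ratio was 1.90 higher on d 9 than on d 2 and 1.26 lower on d 16 than on d 9, and remained 0.64 higher on d 16 than on d 2. Each of these 3 comparisons had an exact two-sided permutation p of 0.1, also after adjustment over the 3, which is the smallest that 3 against 3 arrays can give.

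**Figure D3:**
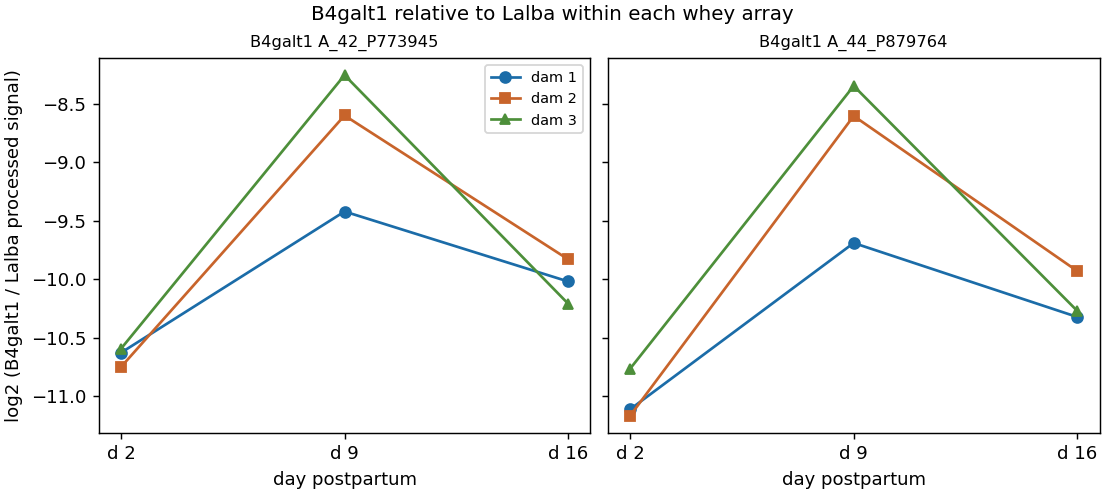
Log2 ratio of the B4galt1 to the Lalba processed signal within each whey array (y axis) by day postpartum (x axis), 1 line for each dam and 1 panel for each B4galt1 probe. In both panels every dam is lowest on d 2 and highest on d 9.

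Ugp2, which encodes the pyrophosphorylase that makes UDP-glucose, had 3 probes on chromosome 14, and they did not move alike. The probe across a junction, A_44_P136342, read 8.74, 8.87 and 8.77 on d 2, 9.02, 9.11 and 9.72 on d 9, and 9.26, 9.45 and 9.53 on d 16. All later values were above those of d 2. Its rise of 0.62 on d 16 (SE 0.19, adjusted p = 0.0467) passed the threshold, and the difference of 0.49 on d 9 did not (adjusted p = 0.116). The d 16 call was lost in 11 of 19 alternative settings, among them scaling each array to its 75th percentile (adjusted p = 0.0959) and leaving out any 1 of the 3 d 2 or the 3 d 16 arrays.

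In the other probes of Ugp2 the spread between dams was larger than the changes from d 2 on d 9, but smaller on d 2. Probe A_44_P410005 (chr14:102072808-102072867) averaged 11.33 ± 0.09, 11.57 ± 0.41 and 11.53 ± 0.17 (SD, n = 3) on d 2, d 9 and d 16, with changes of 0.25 and 0.20 from d 2. Probe A_44_P992780 (chr14:102084045-102084104) averaged 8.48 ± 0.13, 8.31 ± 0.51 and 8.31 ± 0.27, with changes of -0.16 and -0.17. None of these passed (adjusted p from 0.43 to 0.694), and the days overlapped in both probes. The correlations between the 3 probes over the 9 whey arrays were 0.744, 0.697 and 0.127, so the gene as a whole has no single direction here.

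Of the genes named for phosphoglucomutases, Pgm2 fell with little spread between dams, though on d 9 it read 0.20 above d 2 on a spike-in scale. Enzyme activity was not measured, so this decrease does not show a change in the step from glucose 6-phosphate to glucose 1-phosphate. Pgm2 read 8.77, 8.72 and 8.66 on d 2, 7.24, 7.43 and 7.67 on d 9, and 7.55, 7.69 and 7.64 on d 16. Every d 2 value was at least as far above the later ones as the later ones were from each other. The decrease was -1.27 on d 9 (SE 0.13, 2.41-fold, adjusted p = 0.00235) and -1.09 on d 16 (SE 0.13, 2.13-fold, adjusted p = 0.00153), in 3 of 3 dams each time. Within the shared slide the d 9 difference was -1.21 (adjusted p = 0.0318 with slide as a block).

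Pgm1 was dim. Its probe was well above background on 2, 3 and 2 of the 3 arrays of d 2, d 9 and d 16. It read 3.64, 4.43 and 4.24 on d 2, 3.72, 3.00 and 3.92 on d 9, and 3.09, 3.04 and 2.91 on d 16. The d 2 and d 9 values overlapped, and those of d 16 lay below those of d 2. The decrease of -1.09 from d 2 to d 16 passed (SE 0.28, adjusted p = 0.0248), but 8 of 17 alternatives did not keep it below the threshold. Among these were testing all probes without a filter (adjusted p = 0.0552), the Tukey-Kramer test (0.107), and leaving out dam 2 or dam 3 of d 2 or any 1 of the d 16 arrays (0.0554 to 0.0789).

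Among the hexokinases, which trap glucose in the cell as glucose 6-phosphate, Hk1 fell after d 2. Probe A_43_P11538, for which the files give no position, read 5.00, 5.81 and 5.71 on d 2, 3.31, 3.87 and 3.54 on d 9, and 4.21, 4.49 and 4.47 on d 16. The 3 days did not overlap, with d 2 highest and d 9 lowest. The probe was well above background on all 9 whey arrays but dim. Its d 9 reading in dam 1, 3.31, lay close to 3.26, the dimmest signal well above background on that array. The decrease was -1.93 on d 9 (SE 0.24, 3.81-fold, adjusted p = 0.00396) and -1.11 on d 16 (SE 0.24, adjusted p = 0.0134). The difference of d 16 from d 9 was 0.82, with an adjusted p of 0.142. Within the shared slide the d 9 difference was -2.13 (adjusted p = 0.0316 with slide as a block). The d 9 decrease was -0.62 both with normexp, where it stayed called, and with spike-in scaling, where it did not (adjusted p = 0.416). The d 16 call was lost by Tukey-Kramer (adjusted p = 0.0624) and with spike-in scaling (0.731).

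The remaining hexokinase probes, A_44_P139536 for Hk1 and A_44_P452291 for Hk2, the insulin-responsive form of muscle and fat, were each well above background on 1 of 9 whey arrays and were not tested. The Hk1 probe was detected in dam 3 of d 2 and the Hk2 probe in dam 3 of d 9. Their sequences are shown at the ungapped offset with the highest identity found. The tested Hk1 probe shared 16 of 37 bases with the Hk2 probe at its own best offset. For the pair shown, 32 of 48 overlapping bases are identical and 16 differ, and capitals mark the differing bases.
Hk1 A_44_P139536: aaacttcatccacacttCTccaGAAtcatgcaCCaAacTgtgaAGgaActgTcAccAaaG
Hk2 A_44_P452291: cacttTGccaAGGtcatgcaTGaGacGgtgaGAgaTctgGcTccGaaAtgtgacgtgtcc
The Hk1 probe ranged from 0.87 to 3.74 over the whey arrays and the Hk2 probe from 0.98 to 2.76. Most of these readings lie below the dimmest signal called well above background on their array, so neither shows how the level moved. The Hk1 result thus rests on 1 of its 2 probes.

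Lalba was far brighter in whey than in serum. Its mean over the 9 whey arrays was 16.68 ± 0.57 (SD) and the serum array read 9.63, a difference of 7.05 on the log2 scale or 132.6-fold. Serum is 1 pooled array, so no test was made. Of the 11 probes, 6 (those of Lalba, B4galt1 and Ugp2) averaged over 4-fold above the serum reading, and of 21154 probes detected in whey or serum 27.3% did. For 4 of the 6 the serum reading was not well above background, and with the bounds below 4 probes, those of Lalba and Ugp2, remain over 4-fold. Ugp2 probe A_44_P410005, the only other of the 6 well above background in serum, was 15.1-fold higher in whey. For those 4 serum gives only a bound, taken at the dimmest signal well above background on the serum array. Ugp2 was at least 10-fold (A_44_P136342) and at least 5.75-fold (A_44_P992780) higher in whey, and B4galt1 at least 1.87-fold and 1.62-fold. Pgm2 read 7.93 ± 0.61 in whey and 7.41 in serum, a difference of 0.53, which became 1.36 with each array scaled to its 75th percentile. Before normalization its processed signal was 139.1 to 812.8 in whey and 17.33 in serum, so the size of this difference depends on the scaling. After normalization Hk1 probe A_43_P11538 was lower in whey than in serum, at 4.49 ± 0.88 against 6.31. The difference was -1.82, or -1.34 with the 75th percentile. On the 75th percentile scale Lalba differed by 7.84. Before normalization the Hk1 probe read 9.557 in serum and 8.611 to 63.21 in whey, so its direction depends on the scaling. Its serum reading of 6.31 was also close to 5.84, the dimmest signal well above background on that array. Pgm1, Hk2 and the dim Hk1 probe were not well above background in serum. The serum array was the dimmest of all, with a 75th percentile of processed signal of 4.11 against 12.5 to 83.2 in whey.

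The neighbouring steps of sugar metabolism were followed in a list of 30 further genes, of which 26 had probes and 19 were tested, with 26 probes. From d 2 to d 9, 5 of these 26 probes changed, 1 higher and 4 lower, with a median change of -0.18. From d 2 to d 16, 10 changed, 2 higher and 8 lower, with a median of -0.39. Between d 9 and d 16 none did, with 6 at an unadjusted p under 0.05 by limma. The adjusted Tukey-Kramer test called 0 of all 16849 tested probes in that comparison, so it says nothing about the list. The shares called over all tested probes are those given above.

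Glucose enters the cell through transporters, and of the 3 uptake probes tested only that of Slc2a1, the glucose transporter GLUT1, changed. It read 7.28 to 7.54 on d 2, 7.67 to 8.28 on d 9 and 8.34 to 8.62 on d 16, and its rise of 1.10 on d 16 passed (SE 0.18, adjusted p = 0.00446). The d 9 difference of 0.62 had an adjusted p of 0.0502.

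Of the 8 tested probes for hexose phosphorylation and isomers, the 2 of Gpi, the isomerase between glucose 6-phosphate and fructose 6-phosphate, changed. They fell by 1.08 and 1.07 on d 9 (adjusted p = 0.00351 and 0.00381) and by 1.05 and 1.30 on d 16 (adjusted p = 0.00153 and 0.000744).

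Of the 9 probes for UDP-sugar and galactose steps, 2 fell on d 9 and 6 on d 16, and none rose. The largest decrease was that of Galk1, the main galactokinase, from 6.81 to 7.10 on d 2 to 5.23 to 5.78 on d 9 and 4.90 to 5.65 on d 16. Its change was -1.41 on d 9 (adjusted p = 0.00761) and -1.71 on d 16 (adjusted p = 0.00198). Galk2, a related kinase, fell on d 16 with both probes, by 0.91 and 1.24. Galt, the galactose-1-phosphate uridylyltransferase, fell by 0.48 on d 9 (adjusted p = 0.0275). Galm, the galactose mutarotase, fell by 0.48 on d 16 with 1 of 2 probes. The Galt call held in 12 of 20 alternatives and that of Galm in 9 of 19. The nucleoside diphosphate kinases Nme1 and Nme2 fell by 0.71 and 0.57 on d 16. Near-identical stretches of these neighbouring paralogs could share signal.

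Of the 6 tested probes for Golgi transport and other galactosyltransferases, those of the UDP-galactose carrier Slc35a2 (0.73 on d 16, adjusted p = 0.0392) and its relative Slc35b1 (0.52 on d 9, adjusted p = 0.042) rose. The Slc35a2 call held in 4 of 17 alternatives and that of Slc35b1 in 7 of 20. None of the tested probes for B4galt3, B4galt6 and B4galt7, relatives of B4galt1, passed in any comparison.

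**Figure D4:**
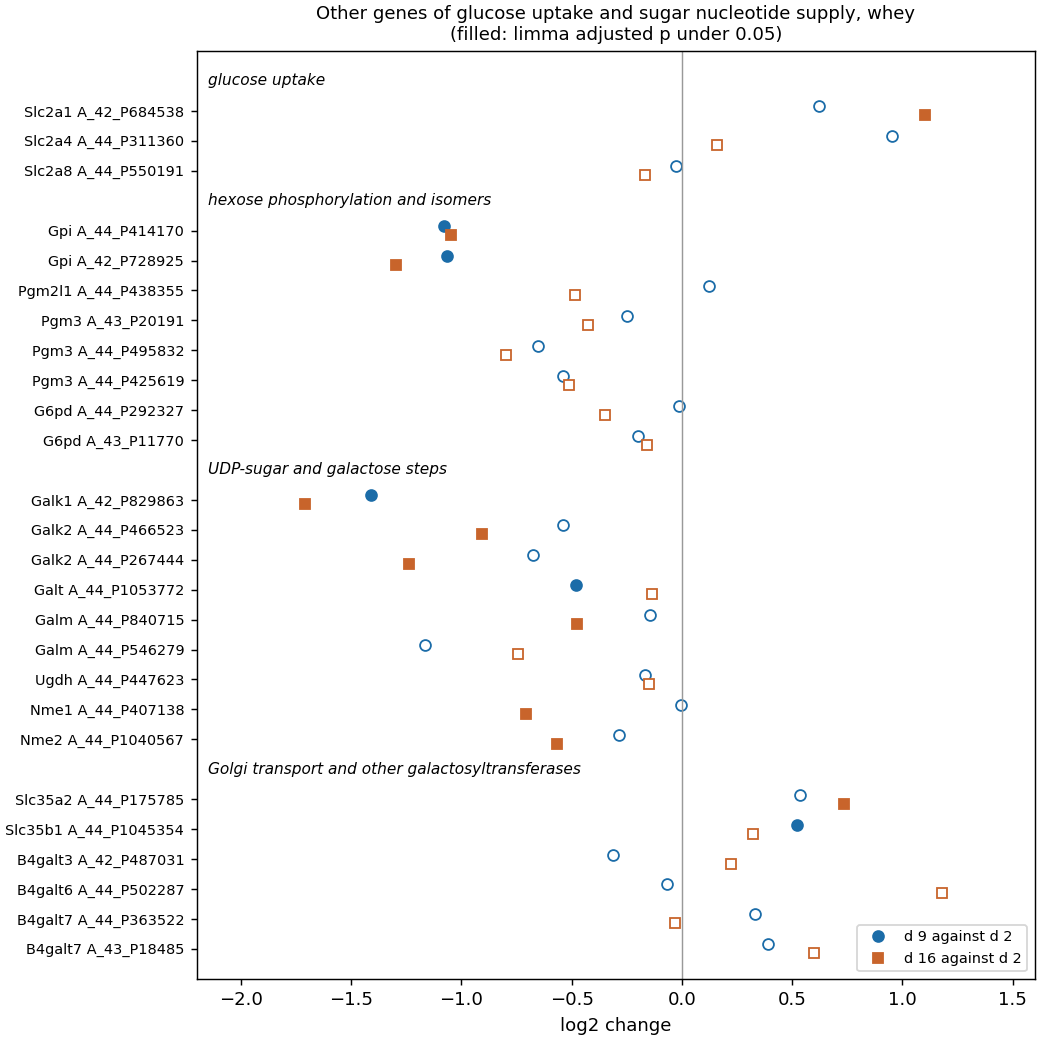
Log2 change from d 2 to d 9 (circles) and from d 2 to d 16 (squares) on the x axis for the 26 tested probes of the wider list (y axis), grouped by step and filled where the limma adjusted p was under 0.05. The filled symbols of Gpi and of the UDP-sugar and galactose steps lie left of 0, and those of Slc2a1, Slc35a2 and Slc35b1 right of 0; on a spike-in scale 4 of 5 filled circles and 2 of 10 filled squares change sides.

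The direction of called changes depended on scaling in 1 setting. Where arrays were scaled to 9 spike-in probes instead, the median of all tested probes shifted to 1.52 on d 9 and 0.59 on d 16 against d 2. On d 9 this setting called 7072 of all 16849 tested probes in either direction. Among them were 4 of 9 member probes and 5 of 26 of the wider list, all of these higher. Beside B4galt1 these members were Ugp2 A_44_P136342 (1.97, adjusted p = 0.0257) and A_44_P410005 (1.67, adjusted p = 0.0465), against that median of 1.52. Pgm2 then read 0.20 on d 9, above 0 but below the median. Both B4galt1 probes stayed called on both days, with 3.19 and 3.43 on d 9 and 2.22 and 2.42 on d 16. The other 5 calls on d 16, Lalba with 1.58 (adjusted p = 0.212) among them, were lost. In the wider list, the 4 probes called lower on d 9 and those of Galm and Nme2 on d 16 changed sign on this scale. The 75th percentile of the whey arrays ranged 6.65-fold and the spike-in signal over all arrays 1.48-fold.

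By their pattern over the 9 whey arrays, the probes most like Lalba among 7265 compared were those of Btbd6 (r = 0.98), R3hcc1 (0.978) and Eif3s10 (0.973). Those most like B4galt1 probe A_42_P773945 were Gtf2a2 (r = 0.996), Stk17b (0.987) and Prelid1 (0.982). These correlations are over arrays of the same 3 dams and describe likeness only. Of the Lalba-like genes, R3hcc1 and Eif3s10 were 1.06 and 0.96 higher on d 16 than on d 2, near the 1.07 of Lalba. Btbd6, the most alike, was 0.53 higher. The B4galt1-like genes changed less than B4galt1, by 0.37 to 0.57 on both days.

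The whey RNA carried the markers of milk-producing epithelium, of which 6 of 8 were also well above background on the serum array. All 8 of Csn1s1, Csn2, Csn3, Wap, Lalba, Krt8, Krt18 and Epcam were detected above background in each of the 9 whey samples, and their summed signal, mostly of milk proteins, was 19.41 to 19.48 on d 2, 19.36 to 19.80 on d 9 and 19.96 to 20.12 on d 16 on the log2 scale. Their members moved apart: Csn2, Csn3 and Wap were higher on d 16 than on d 2 by 1.04, 0.64 and 0.73, whereas Csn1s1 differed by 0.11 (adjusted p = 0.82) and Epcam by 0.43 (adjusted p = 0.362), and Krt8 and Krt18, keratins of the same cells, fell by 1.31 and 0.90 on d 9 and by 1.16 and 0.72 on d 16. Of the 6 macrophage markers, Cd68, Fcer1g, C1qa and C1qb rose on both days. Adgre1 differed from d 2 by -0.40 on d 9 and -0.36 on d 16 (limma adjusted p = 0.839 and 0.85). The summed signal of the list was 6.40 to 7.37 on d 2, 8.0 to 9.27 on d 9 and 10.05 to 10.57 on d 16. On each whey array 2 of the 6 were detected, Csf1r on none and Adgre1 on 3. Of the other lists, 3 of 3 myoepithelial markers, 1 of 5 lymphocyte markers (Cd3g) and none of the neutrophil, platelet, red cell and fat markers were detected on every whey array. Cd3g rose by 1.16 and the platelet marker Pf4 fell by 1.73 on d 16. Hbb and Alas2 of red cells and the 4 liver markers were well above background on no whey array. The part of the macrophage and keratin changes in the results on the lactose synthesis genes was not tested.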

How the data were processed

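Total RNA of whey and serum was labelled with Cy3 and hybridized to single-colour Agilent rat arrays of 4 to a slide. The authors deposited 1 scanner table per array from Agilent Feature Extraction 9.5.3.1, in which the processed signal is an intensity, background-subtracted and not normalized between arrays, beside flags for signal well above background. A deposited table of quantile-normalized values was not used, since its 10 sample columns carry no label of a sample.

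Log2 processed signals of the 10 arrays were quantile normalized, outlier spots were left out, and spots of a probe were averaged. Probes well above background with a processed signal over 20 on at least 1 whey array were tested with limma 3.58.1 in R 4.3.3 (day means, 9 whey arrays, two-sided), and p-values were adjusted by Benjamini-Hochberg over all 16849 probes. Every change is on the log2 scale. The number of arrays limits the precision. Dam numbers come from the sample titles and pair the days by animal. The deviations of same-numbered arrays correlated between -0.02 and 0.22. Separate dams are the replicates.

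The members and lists were chosen with earlier results of these data known. Named are all members, every pathway gene called in at least 1 comparison, and for Lalba and B4galt1 the 3 most correlated probes with a gene symbol and signal above background on each of the 9 whey arrays. Current symbols were matched to 82% of RefSeq accessions. Probe and promoter sequences were read from the array tables and RefSeq. 1 gene of the pathway list is not reported here and was left out of its counts. Marker lists covered epithelium, myoepithelium, macrophages, neutrophils, lymphocytes, red cells, platelets, liver and fat.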

Additional observations from a re-analysis of the deposited data

How the results depend on the processing

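Of the 11 called changes of member probes, 4 (both B4galt1 probes in both comparisons with d 2) kept their direction and call, though not their size, under all 19 or 20 alternatives, and of the 16 changes not called, 13 stayed so. Spike-in scaling reduced the member calls of d 16 against d 2 from 7 to 2 and those of the wider list from 10 to 0, and it turned Pgm2 on d 9 from -1.27 to 0.20. The Tukey-Kramer test of the study's methods left 4 member calls on d 16 against d 2 after adjustment. In d 16 against d 9, 1 member probe, Lalba, was called in place of 0 with normexp background correction, a minimum signal of 100, a filter for detection on every whey array, the dam as a replicate block, or slide as a random block. The wider list had 2 calls there with normexp and 1 call each with the minimum signal, the all-array filter and the random slide. For d 9 against d 2 the wider list had 9 calls, in place of 5, with the minimum signal of 100 or the all-array filter, where fewer probes were tested, and 2 with slide as a fixed block. Leaving out 1 array at a time gave 3 to 5 calls there, with 3 without dam 2 of d 2, dam 2 of d 9 or dam 3 of d 16. The same gave 4 member calls on d 9 throughout, 5 to 7 on d 16 against d 2 and 0 on d 16 against d 9, and 8 to 10 and 0 in the wider list. With 1 array out, the 2 arrays of that day are assumed to vary like the other days. The replicate block changed no other call of a member. Normexp left 3 member probes over 4-fold above serum, where the offset of 50 lifts dim signals. Normalization over whey arrays alone gives no serum value and was not run for serum. Over all tested probes, d 9 against d 2 gave 2969 calls, 7072 with spike-in scaling, 1297 by Tukey-Kramer and 498 with slide as a fixed block. For d 16 against d 2 there were 4801, with 764 and 2683, and 5668 with slide as a random block. For d 16 against d 9 there were 239, with 159 and 0, and 855 with normexp and 117 with the replicate block. The causes of these shifts were not tested.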
